A study of Homo sapiens with 6 samples.

Results

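The genes described here are 9 interferon-stimulated genes, which cells switch on when they sense an interferon. They were chosen by name as IFIT1, IFIT2, IFIT3, ISG15, MX1, OAS1, IFI6, IFI44 and IRF9, and they make up 9 of the 17687 genes of the deposited table. All 9 were found in the table, and all 9 were among the 14005 genes with enough counts to be tested. RNA was sequenced from KHM-5M cells, an established line of anaplastic thyroid cancer, in 3 groups of 2 libraries. The control cells are labelled only as control, and phosphate-buffered saline is the control that the study names for other assays. The SS cells received sodium selenite, a selenium salt, and the SS+NAC cells received sodium selenite with N-acetylcysteine, an antioxidant. The study asked how sodium selenite acts on thyroid cancer cells and how far reactive oxygen species, which N-acetylcysteine removes, take part. All libraries came from 1 cell line, no library had N-acetylcysteine alone, and dose and exposure time are not given in the labels.

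Interferons are secreted proteins that warn cells of viruses. Type I interferon binds the receptor of IFNAR1 and IFNAR2, the kinases JAK1 and TYK2 then become active, and a complex that holds STAT2 and IRF9 binds a DNA element called ISRE in the promoters of target genes. Interferon gamma acts through JAK1 and JAK2 on a different element called GAS. The proteins made from the target genes block steps of viral growth, and some of them keep a low basal level without any virus. Thyroid cells respond to interferons, and treatment with interferon alpha is a known trigger of autoimmune thyroid disease.

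The markers of the labelled cell type were checked first, in TPM, a level corrected for transcript length and library size. PAX8, a thyroid transcription factor, had a mean of 123 TPM, whereas TG, NKX2-1, FOXE1 and SLC5A5, which mark differentiated thyroid cells, had between 0.128 and 0.945 TPM. The keratins KRT8 and KRT18 (1188 and 924 TPM) and vimentin (VIM, 6164 TPM) were high, whereas the epithelial markers KRT19, EPCAM and CDH1 were low (1.67, 4.92 and 0.21 TPM). Leukocytes and plasmacytoid dendritic cells could bring an interferon response of their own, and their markers other than CD68 were low. The leukocyte gene PTPRC had 0.615 TPM, and CLEC4C and IL3RA of plasmacytoid dendritic cells had 0.085 and 0.0833 TPM. Of 7 leukocyte markers listed in the table, 3 reached a mean of 1 TPM, the most abundant being CD68 with 88.8 TPM. Their summed level was 85.9 and 90.2 TPM in control, 86.7 and 74.2 in SS and 104 and 114 in SS+NAC. The 3 endothelial markers had means of at most 0.265 TPM. Of 5 fibroblast markers COL1A1 had 217 TPM and PDGFRB 4.91 TPM, while COL1A2, COL3A1 and DCN had 0.025, 0.00333 and 0.107 TPM.

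The sequences around the transcription starts of 8 of the 9 genes were searched for the ISRE and GAS elements. Promoter windows of 300 bases, most of them before the start, were taken from RefSeq on GRCh38.p14, where 8 of the 9 genes matched, with 12 windows. IFIT2 was not searched. The core of the ISRE was written as GAAANNGAAA and searched on both strands, and the GAS letters were TTCNNNGAA, which read the same on both strands. The ISRE core was found in 9 of the 12 windows (75.0%), belonging to 6 of the 8 genes, and in 1255 of all 35116 windows (3.57%). Among the other interferon-stimulated genes considered further on, 30 of 58 windows held it (51.7%). The GAS letters were in 3 of the 12 windows (25.0%) and in 7.66% of all windows. Of the windows of the other interferon-stimulated genes, 15 of 58 held them (25.9%).

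The stretches below show these matches, in capitals, on the strand of the gene and 5′ to 3′. They are printed because most of the 9 genes carry the core where the complex with IRF9 is known to bind. In IRF9 and OAS1 only the GAS letters matched, and MX1 carries both. The letters GAAANNGAAA fix the spacing, so an ISRE with a different spacing would be missed. Whether IRF9 and OAS1 hold such an ISRE was not tested. In ISG15 (chr1:1013364-1013419, plus strand) 2 matches overlap, at positions -113 and -107 from the start. In IFI6 (chr1:27672256-27672368, minus strand) 3 matches lie from -156 to -93. In IFIT1 (chr10:89392487-89392549, plus strand), and before both starts of IFIT3 (chr10:89327821-89327904 and chr10:89332415-89332507, plus strand), the core reads on the reverse strand and so appears as its reverse complement, 2 matches in each. IFI44 (chr1:78649751-78649788, plus strand) has 1 such match, at -60 from the later of its starts and at -18 from the earlier. In OAS1 (chr12:112906774-112906822) and IRF9 (chr14:24161182-24161230), both on the plus strand, the GAS letters begin at -168 and -63. MX1 has the core at 12 bases past its first start, inside the transcript, and at -196 from another start (chr21:41431834-41431883, plus strand), where the core reads on the reverse strand and the GAS letters begin at -189, running past the capitals.
ISG15: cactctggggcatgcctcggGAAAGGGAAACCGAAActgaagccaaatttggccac
IFI6: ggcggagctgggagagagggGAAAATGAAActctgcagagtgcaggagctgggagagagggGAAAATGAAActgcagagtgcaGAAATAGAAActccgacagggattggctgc
IFIT1: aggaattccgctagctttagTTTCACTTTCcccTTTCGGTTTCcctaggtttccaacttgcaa
IFIT3 first start: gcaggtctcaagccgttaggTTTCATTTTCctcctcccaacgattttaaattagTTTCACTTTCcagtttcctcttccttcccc
IFIT3 second start: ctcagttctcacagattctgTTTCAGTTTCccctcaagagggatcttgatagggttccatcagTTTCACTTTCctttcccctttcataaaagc
IFI44: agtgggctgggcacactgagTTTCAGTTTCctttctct
OAS1: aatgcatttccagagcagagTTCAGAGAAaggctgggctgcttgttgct
IRF9: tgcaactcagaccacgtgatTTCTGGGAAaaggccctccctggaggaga
MX1: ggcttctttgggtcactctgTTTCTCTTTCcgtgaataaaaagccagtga

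**Figure D1:**
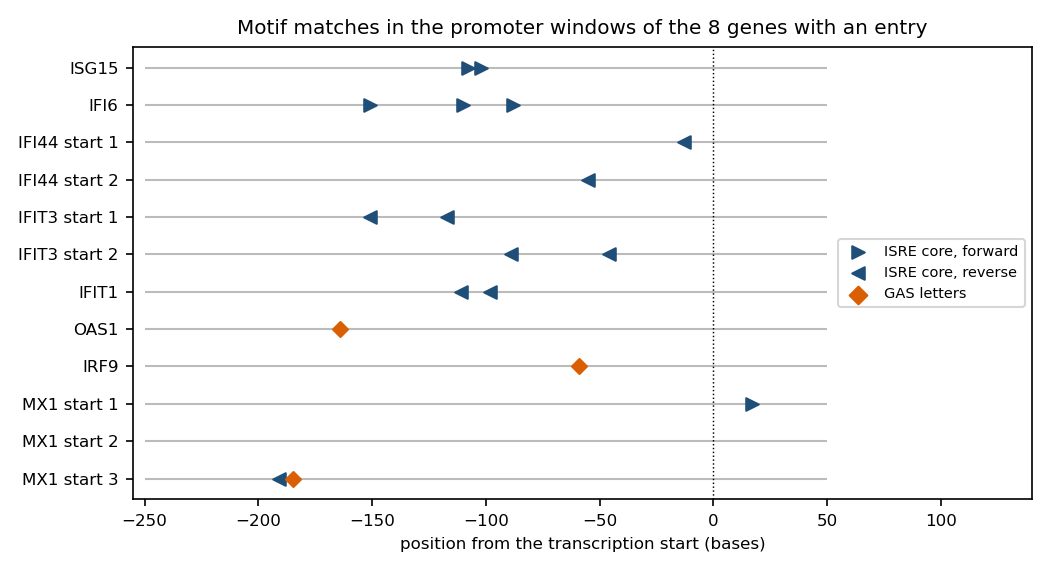
Motif matches by position from the transcription start (bases) in the 12 promoter windows of the 8 genes with an entry; triangles are ISRE cores on the forward or reverse strand, diamonds the GAS letters, and each horizontal line is 1 window. The matches of ISG15, IFI6, IFIT1 and IFIT3 lie between -156 and -51.

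IFIT2, IFIT3 and IFIT1 lie near each other on the plus strand of chromosome 10 (GENCODE release 29 on GRCh38), at chr10:89283694-89309276, chr10:89327894-89340971 and chr10:89392546-89406486. ISG15 (chr1:1001138-1014540), IFI44 (chr1:78649796-78664078) and, on the minus strand, IFI6 (chr1:27666061-27672218) lie apart from each other on chromosome 1. OAS1 is at chr12:112906777-112933222, IRF9 at chr14:24161053-24166565 and MX1 at chr21:41420304-41459214. Reads were counted without strand as far as the protocol says, so some counts are uncertain. IRF9 shares 1838 of its 3794 exonic bases with the overlapping gene AL136295.5 on the same strand, and IFIT2 shares 356 of 4101 bases with AL353751.1. Antisense genes cover 65 exonic bases of IFIT2, 36 of ISG15, 92 of OAS1 and 236 of MX1. IFI6 is uncertain as well, because the deposited table gives it the plus strand.

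All 9 genes were expressed without treatment. In the control libraries ISG15 was the most abundant with 34.8 ± 1.56 TPM (mean ± SD, n = 2, as for all values with ±), a level above that of 76.2% of the 17687 genes. IFI6 (16.9 ± 1.52 TPM) and IFI44 (15.6 ± 1.98 TPM) followed, and their ranges overlapped. IRF9 (13.0 ± 0.587 TPM) and IFIT3 (11.6 ± 0.424 TPM) were next, then OAS1 (7.62 ± 0.262 TPM) and MX1 (5.40 ± 0.205 TPM), each without overlap with its neighbours. IFIT2 (3.03 ± 0.636 TPM) and IFIT1 (2.77 ± 0.12 TPM) were lowest and overlapped. The 9 levels together summed to 113 and 108 TPM in control, 121 and 125 in SS and 134 and 142 in SS+NAC.

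The libraries held between 17645545 and 23810056 expected counts in total, that is, reads that the authors' program assigned to genes in part where a read fits several. Counts per library are therefore given together with CPM, counts relative to library size and scaled between libraries by the trimmed mean of M-values (TMM). IRF9, the DNA-binding partner of STAT2, had 203 and 239 counts in control, 374 and 306 in SS and 361 and 384 in SS+NAC. In CPM these were 11.0 ± 0.334, 15.1 ± 1.64 and 15.5 ± 0.708. Both treated groups lay above the control libraries without overlap, and they overlapped each other. In TPM the second SS library (12.9) fell between the control libraries (13.4 and 12.6).

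ISG15 encodes a small ubiquitin-like protein that is attached to other proteins and is also secreted. It had 196 and 262 counts in control, 364 and 475 in SS and 316 and 295 in SS+NAC. The means were 11.4 ± 0.676, 18.8 ± 4.12 and 12.7 ± 0.588 CPM. Both SS libraries were above all others, the second (21.7 CPM) well above the first (15.9 CPM), and the SS+NAC libraries were slightly above the control libraries. ISG15 kept this order of groups in TPM, with 33.7 and 35.9, then 42.0 and 52.3, then 40.3 and 40.4.

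IFIT1, IFIT2 and IFIT3 encode proteins with tetratricopeptide repeats that bind each other, and IFIT1 binds foreign RNA by its end. IFIT1 had 115 and 136 counts in control, 137 and 127 in SS and 125 and 154 in SS+NAC. IFIT2 had 111 and 103 counts in control, 129 and 111 in SS and 148 and 181 in SS+NAC. IFIT3 had 272 and 322 counts in control, 430 and 365 in SS and 360 and 394 in SS+NAC. In CPM, IFIT1 was nearly level (6.27 ± 0.170, 5.89 ± 0.12 and 5.79 ± 0.863 CPM in control, SS and SS+NAC), although its SS libraries lay just below the control libraries. IFIT2 overlapped between control and either treated group and was highest in the second SS+NAC library (7.52 CPM). IFIT3 was above control in both SS libraries (17.7 ± 1.46 against 14.8 ± 0.391 CPM), while the SS+NAC libraries overlapped control. In TPM its first SS library (12.58) lay above, and the second (10.32) below, both control libraries (11.87 and 11.27).

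OAS1 makes the chains of linked adenylates that activate RNase L, an enzyme that cuts RNA, and MX1 is a dynamin-like GTPase that traps viral parts. OAS1 had 129 and 162 counts in control, 207 and 178 in SS and 188 and 207 in SS+NAC. MX1 had 146 and 179 counts in control, 217 and 225 in SS and 259 and 280 in SS+NAC. In CPM OAS1 was 7.25 ± 0.111 in control, 8.58 ± 0.631 in SS and 8.19 ± 0.575 in SS+NAC, with all 4 treated libraries above both control libraries and the treated groups overlapping. In TPM its second SS library (7.27) lay below both control libraries (7.44 and 7.81). For MX1 the groups did not overlap at all, with 8.11 ± 0.0130 CPM in control, 9.87 ± 0.579 in SS and 11.2 ± 0.640 in SS+NAC.

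IFI6 encodes a small membrane protein that limits cell death, and IFI44 a cytoplasmic protein. IFI6 had 133 and 146 counts in control, 189 and 215 in SS and 237 and 172 in SS+NAC. IFI44 had 317 and 313 counts in control, 372 and 353 in SS and 473 and 532 in SS+NAC. The SS+NAC libraries of IFI6 lay far apart (9.81 and 7.14 CPM) and overlapped both other groups. IFI44 was highest in both SS+NAC libraries (20.8 ± 1.78 CPM), while SS (16.2 ± 0.0637 CPM) fell between the control libraries.

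**Figure D2:**
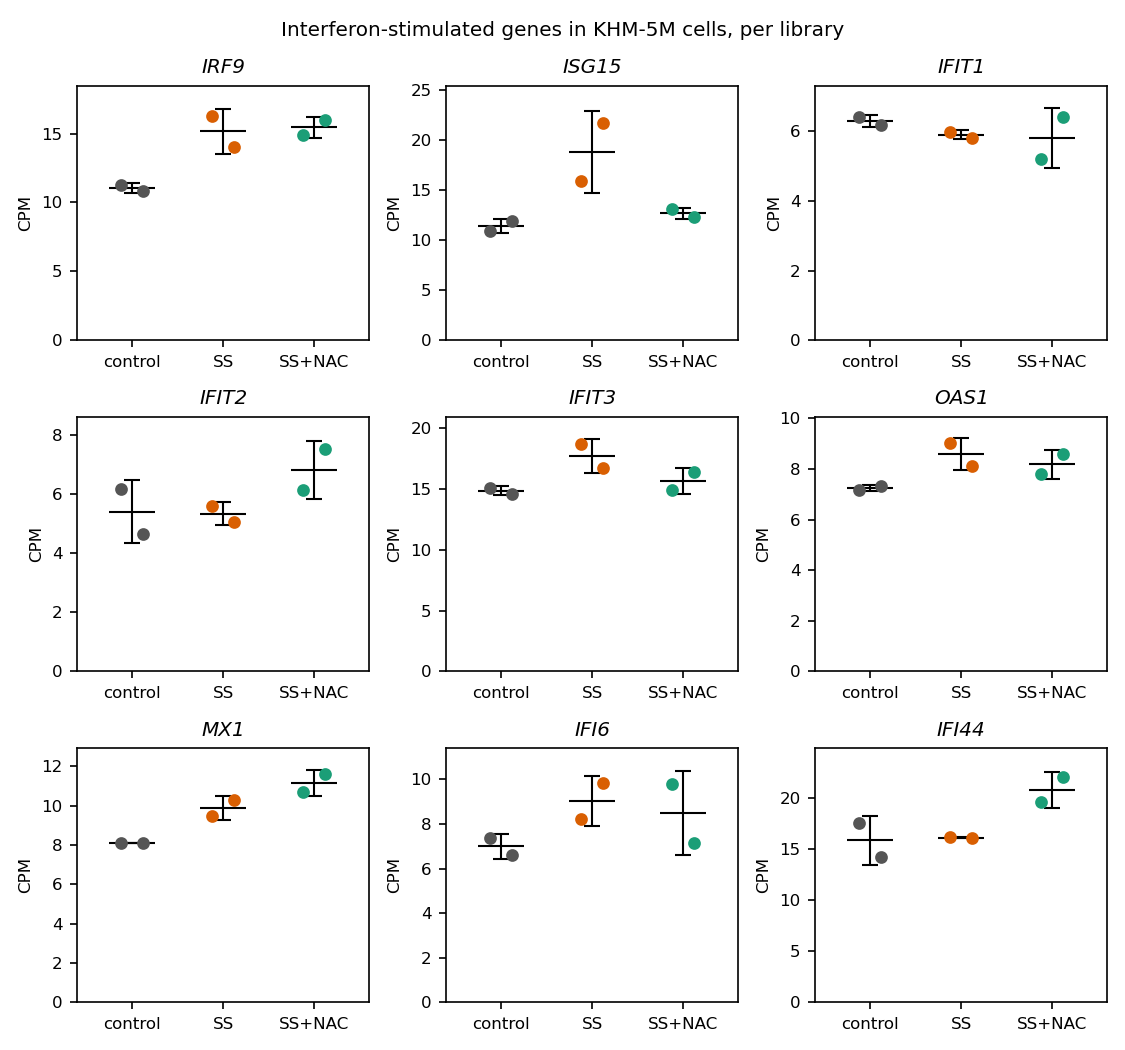
CPM of each of the 9 genes in the 6 libraries; points are libraries, horizontal bars the group means and whiskers 1 SD (n = 2 libraries per group). ISG15 is highest in both SS libraries, IRF9 is higher in all 4 treated libraries than in control, and IFI44 and MX1 are highest in both SS+NAC libraries.

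The first comparison asks what sodium selenite alone did. ISG15 was 1.65-fold and IRF9 1.37-fold higher in SS than in control, and these 2 of the 9 genes were called at an adjusted p of at most 0.05 by the quasi-likelihood test of edgeR, adjusted after Benjamini-Hochberg over all tested genes. Over all 14005 tested genes 40.0% were called, and 18.6% were called as higher. The log2 fold change was 0.72 ± 0.147 (SE) for ISG15 (edgeR adjusted p = 0.00345) and 0.46 ± 0.115 for IRF9 (edgeR adjusted p = 0.00998), and both were higher in 2 of 2 SS libraries. The other 7 genes had values from -0.09 for IFIT1 to 0.37 for IFI6 with edgeR adjusted p from 0.0778 to 0.983. The median of the 9 genes was 0.26, against 0.00 for all tested genes. Groups did not overlap for 7 of the 9 genes, as for 73.2% of the tested genes. The call of IRF9 was lost without the second control library (0.45, edgeR adjusted p = 0.0580) and without the first SS library (0.34, edgeR adjusted p = 0.0824). IFI6 (0.37) and IFIT3 (0.26 and 0.25) were called, with edgeR adjusted p from 0.0377 to 0.0482, when either SS+NAC library, which belongs to neither group, was left out. The P-values measure only the spread between these samples, with 2 libraries per group, and a change in every cell cannot be told apart from a change in some cells.

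The fold changes followed transcript length. Across all tested genes, Spearman's rho between log2 fold change and effective length (the number of positions at which a read can start) was -0.68 for SS against control and -0.64 for SS against SS+NAC, and -0.04 for SS+NAC against control. Genes are not independent replicates, so these are descriptions without a test. Short transcripts were higher in SS and long ones lower. The 9 genes ran from 643 bases for ISG15 and 821 for IFI6 to 4438 for IFIT1. All were shorter than the median of the genes called lower in SS against control (5332 bases). Only ISG15 and IFI6 were shorter than the median of the genes called higher (1465 bases). Across the 9 genes rho was -0.83 for SS against control. A smooth curve of each library's deviation on length was therefore also entered in the fit as an offset, which takes out whatever follows length, of whatever source. At the length of ISG15 that curve amounted to 0.53 of the 0.72, at that of IFI6 to 0.48 and at that of IRF9 to 0.26. With the length offset 0 of the 9 genes were called by edgeR in SS against control, and 9.23% of all tested genes were. The unadjusted p by edgeR was below 0.05 for 1 of the 9 and for 3555 of all 14005 tested genes. ISG15 then had a log2 fold change of 0.18 (edgeR adjusted p = 0.362) and IRF9 0.20 (edgeR adjusted p = 0.344). DESeq2, run without the offset, called 2 of the 9 genes and 4611 of all 12171 genes for which it gave an adjusted p. Whether the dependence on length came from the cells or from the RNA and libraries was not tested.

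**Figure D3:**
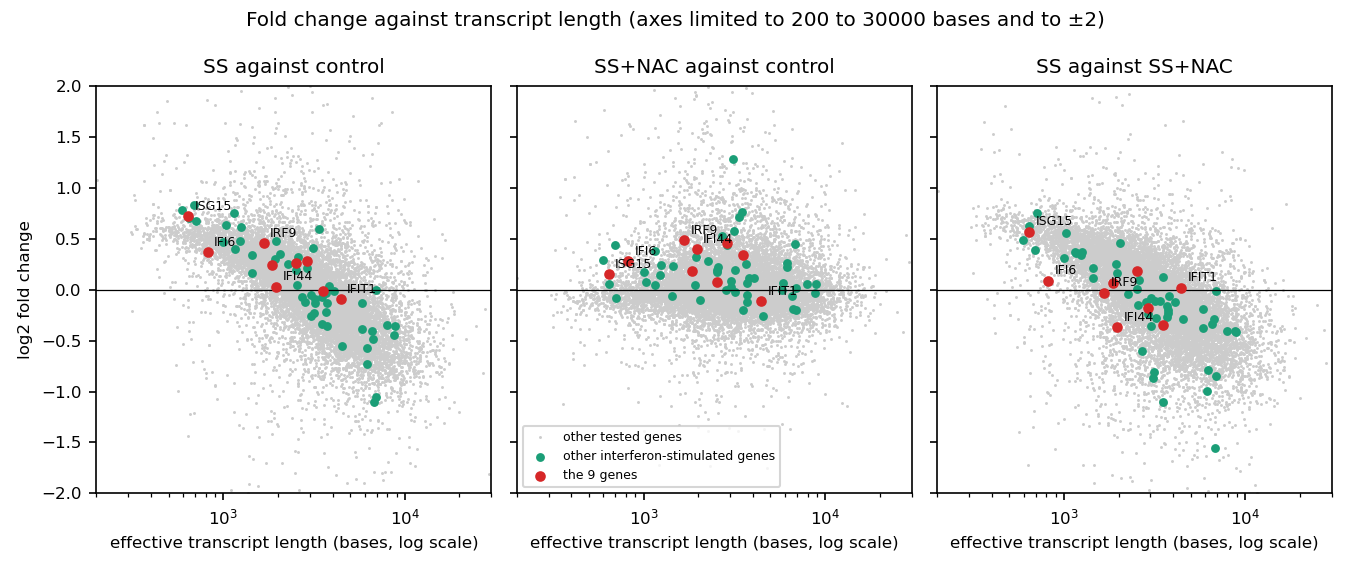
Log2 fold change against effective transcript length in bases (log axis) for all tested genes (grey), the other interferon-stimulated genes (green) and the 9 genes (red) in the 3 comparisons. The cloud falls with length in both comparisons that hold SS (rho of -0.68 and -0.64), the coloured genes lie along it, and it is flat in SS+NAC against control (rho of -0.04).

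The second comparison asks whether the genes differed from control when N-acetylcysteine was given with sodium selenite. It uses the same control libraries as the first. IRF9 (0.49 ± 0.115, SE), MX1 (0.46 ± 0.12) and IFI44 (0.40 ± 0.119) had the largest log2 fold changes of SS+NAC against control, with edgeR adjusted p of 0.0641, 0.0901 and 0.135. None passed the threshold: 0 of the 9 genes were called by edgeR, where 2.01% of all tested genes were called. DESeq2 called 0 of the 9 and 315 of all 13197 genes for which it gave an adjusted p. By edgeR 3 of the 9 had an unadjusted p below 0.05, as did 2256 of all 14005 tested genes. Of the 9 log2 fold changes 8 were above 0, with a median of 0.28 against 0.00 for all tested genes, where 6913 of 14005 were above 0. Groups did not overlap for 5 of the 9 genes, as for 47.6% of the tested genes. ISG15 had 0.15 ± 0.151 and IFIT1 -0.11 ± 0.152, with edgeR adjusted p of 0.654 and 0.752. When the first SS+NAC library was left out, 1086 of all 14277 genes then tested were called by edgeR, and 3 of the 9 genes: IRF9 (0.53, adjusted p = 0.0203), IFI44 (0.48, adjusted p = 0.0242) and MX1 (0.52, adjusted p = 0.0364). With the length offset 0 of the 9 genes were called by edgeR, and the share of all tested genes called was again 2.01%. The unadjusted p by edgeR was then below 0.05 for 3 of the 9 and for 2445 of all 14005 tested genes.

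The third comparison sets the selenite-treated groups against each other and asks what N-acetylcysteine changed. It shares the SS libraries with the first comparison and the SS+NAC libraries with the second. ISG15 was 1.48-fold higher in SS than in SS+NAC (0.57 ± 0.142, SE; edgeR adjusted p = 0.00907), and IFI44 was 1.29-fold lower (-0.37 ± 0.117; edgeR adjusted p = 0.0276). These 2 of the 9 genes were called, 1 in each direction. Of all tested genes 42.7% were called, 19.6% as higher and 23.1% as lower in SS. Groups did not overlap for 5 of the 9 genes, as for 70.4% of all tested genes. The median of the 9 genes was 0.02, against -0.03 for all tested genes. IRF9, called in SS against control, differed little between the treated groups (-0.03 ± 0.110, edgeR adjusted p = 0.858).

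Neither of these calls was firm. With the length offset ISG15 had -0.01 (edgeR adjusted p = 0.974), whereas IFI44 had -0.53 and stayed called (edgeR adjusted p = 0.0163), as 1 of the 9 genes, while 14.4% of all tested genes were called. ISG15 was not called without the second SS library (0.32, edgeR adjusted p = 0.108). IFI44 was not called without the first SS library (-0.37, edgeR adjusted p = 0.0916), the second SS library (-0.36, edgeR adjusted p = 0.118) or the second SS+NAC library (-0.28, edgeR adjusted p = 0.0973), nor by DESeq2 (-0.34, adjusted p = 0.0837). IFIT2 was called when the first SS+NAC library was left out (-0.49, edgeR adjusted p = 0.0442). IFI6, not called either way, moved from 0.09 to -0.40 under the offset (edgeR adjusted p = 0.0954).

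**Figure D4:**
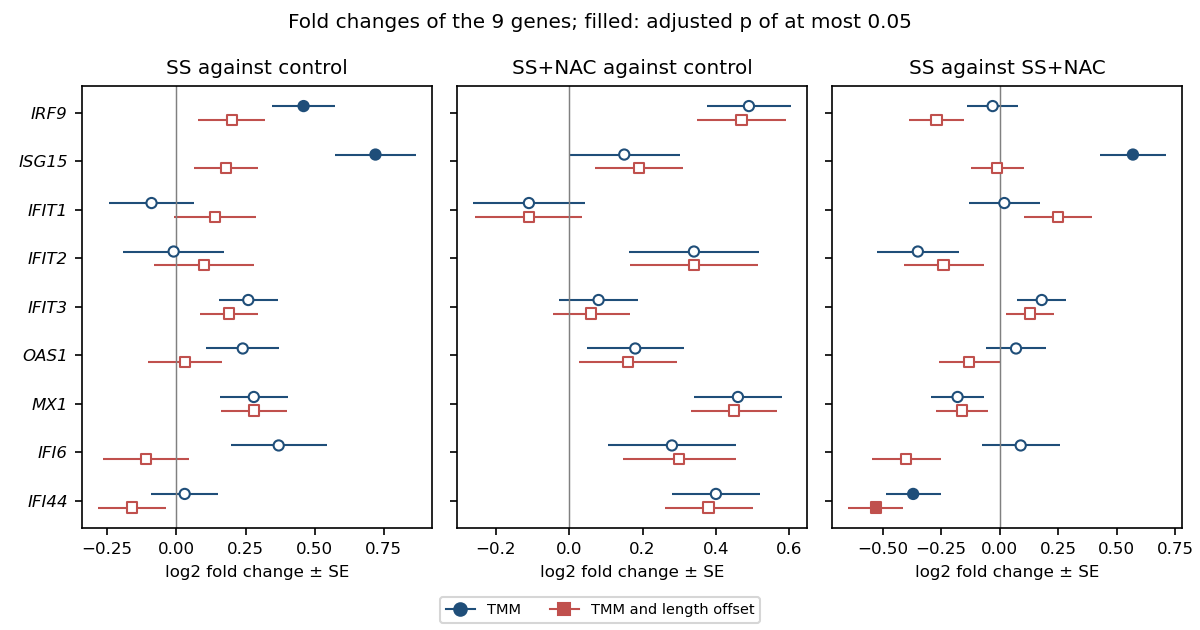
Log2 fold changes with SE of the 9 genes in the 3 comparisons, with TMM scaling alone (circles) and with the length offset added (squares); filled symbols have an edgeR adjusted p of at most 0.05. ISG15 and IRF9 are filled without the offset in SS against control, and IFI44 in SS against SS+NAC is the 1 gene filled both ways.

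Beyond the 9 genes, 53 other interferon-stimulated genes were listed, 52 were in the table and 50 were tested. In SS against control 27 of the 50 were called by edgeR, 15 higher and 12 lower, where 40.0% of all tested genes were called and 18.6% were called as higher. The median log2 fold change of the 50 was -0.02. The direction went with length. The 15 higher genes had a median effective length of 1161 bases and the 12 lower genes one of 6616 bases, and the longest of the former (3375) was shorter than the shortest of the latter (3727). IFITM1 (0.83 ± 0.129, SE, edgeR adjusted p = 0.000875) and IFI27 (0.78 ± 0.0785, edgeR adjusted p = 0.000143), a membrane protein that hinders viral entry and a small mitochondrial protein, rose most. SAMD9L (-1.10 ± 0.205, edgeR adjusted p = 0.00210) and its neighbour SAMD9 (-1.05 ± 0.159, edgeR adjusted p = 0.000763), which restrain protein synthesis in infected cells, fell most.

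The libraries behind these values were clearly apart. IFI27 had 46.1 and 43.8 CPM in control, 75.0 and 79.6 in SS and 52.8 and 57.0 in SS+NAC. SAMD9L had 4.89 and 4.16 CPM in control, 2.22 and 1.96 in SS and 5.47 and 6.81 in SS+NAC. SAMD9 had 9.84 and 8.68 CPM in control, 4.66 and 4.25 in SS and 7.21 and 8.93 in SS+NAC. IFI27 was thus highest, and the SAMD9 pair lowest, in both SS libraries. IFITM1 shares exonic bases with IFITM2 and has close copies in IFITM2 and IFITM3, so its counts are uncertain. The genes of this list with the highest levels were IFITM3 (mean of 915 TPM) and LY6E (342 TPM), both higher in SS, by 0.70 ± 0.0892 and 0.40 ± 0.0875 with edgeR adjusted p of 0.000375 and 0.00484. The call of LY6E was lost without the first control library (0.38, edgeR adjusted p = 0.0525) or the second SS library (0.27, edgeR adjusted p = 0.0556).

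With the length offset 4 of the 50 were called in SS against control, 2 in each direction, where 9.23% of all tested genes were called. SAMD9 (-0.63, edgeR adjusted p = 0.0293) remained, as did 2 genes chosen after their values were seen, TRIM14 (-0.32, edgeR adjusted p = 0.0316) and UBA7 (0.69, edgeR adjusted p = 0.0424). UBA7 is the enzyme that activates ISG15 for its attachment to proteins. It was called at 0.60 without the offset (edgeR adjusted p = 0.0241) but not without the second control library (0.44, edgeR adjusted p = 0.142) or the first SS library (0.38, edgeR adjusted p = 0.185). ZC3HAV1, also chosen after its values were seen, was called with the offset only (0.43, edgeR adjusted p = 0.00487). SAMD9L (-0.69, edgeR adjusted p = 0.0579), IFITM1 (0.32, edgeR adjusted p = 0.239), IFI27 (0.24, edgeR adjusted p = 0.125), IFITM3 (0.17, edgeR adjusted p = 0.143) and LY6E (0.01, edgeR adjusted p = 0.955) were not called with it.

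In SS+NAC against control 0 of these 50 genes were called by edgeR, where 2.01% of all tested genes were called. DESeq2 called 0 of the 50 and 315 of all 13197 genes for which it gave an adjusted p. By edgeR 12 of the 50 had an unadjusted p below 0.05, as did 2256 of all 14005 tested genes. Of the 50 values 36 were above 0, with a median of 0.10. Without the first SS+NAC library 6 of the 50 were called by edgeR, as were 1086 of all 14277 genes then tested. They were IFI27 (0.34), IFITM1 (0.51), UBA7 (0.87), TRIM14 (-0.34) and, chosen after their values were seen, TRIM22 (1.82) and UBE2L6 (0.35). TRIM22 had few counts, 11 and 9 in control and 16 and 43 in SS+NAC, so its value rests on the second SS+NAC library.

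In SS against SS+NAC 25 of the 50 were called, 11 higher and 14 lower in SS, where 42.7% of all tested genes were called. Without the second SS library 15 of the 50 and 3250 of all 14316 genes were called. Among the called genes the 4 largest changes were all falls, of SAMD9L (-1.55 ± 0.194, SE, edgeR adjusted p = 0.00037), DDX60 (-0.99 ± 0.182, edgeR adjusted p = 0.0019), SAMD9 (-0.85 ± 0.158, edgeR adjusted p = 0.00192) and XAF1 (-0.81 ± 0.217, edgeR adjusted p = 0.0128). DDX60 is a helicase linked to RNA sensing and XAF1 promotes cell death. XAF1 had 6.0 and 3.44 CPM in control, 4.10 and 3.84 in SS and 6.92 and 6.98 in SS+NAC. It was not called without the second SS library (-0.76, edgeR adjusted p = 0.0799), and it overlaps the antisense gene PRAL. With the length offset 14.4% of all tested genes and 5 of the 50 were called: SAMD9L (-1.15, edgeR adjusted p = 0.00438), USP18 (0.31, edgeR adjusted p = 0.0213), DDX60 (-0.62, edgeR adjusted p = 0.0445), XAF1 (-0.75, edgeR adjusted p = 0.0449) and ZC3HAV1 (0.39, edgeR adjusted p = 0.0054). SAMD9 (-0.45, edgeR adjusted p = 0.0729) was not.

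**Figure D5:**
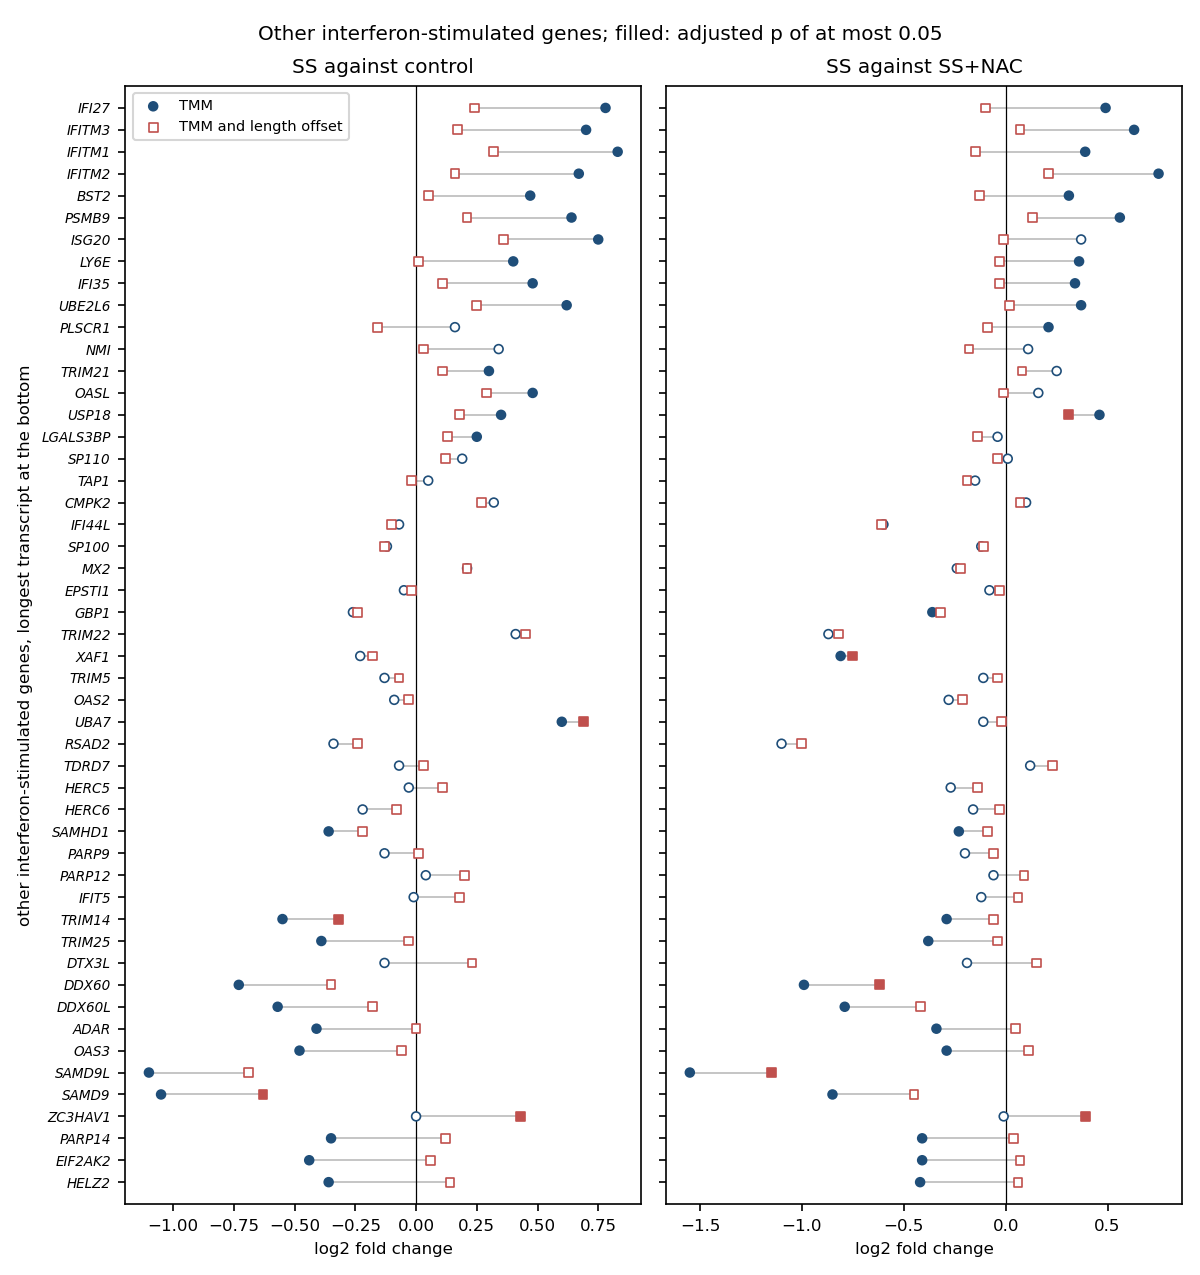
Log2 fold changes of the 50 other interferon-stimulated genes, ordered by effective transcript length, in SS against control and SS against SS+NAC, with TMM scaling alone (circles) and with the length offset (squares); filled symbols have an edgeR adjusted p of at most 0.05. Without the offset 27 and 25 genes are filled, short genes to the right and long genes to the left, and with it 4 and 5.

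Upstream of these targets the ligands were nearly absent. Of 21 interferon ligands looked for, 3 were in the table, IFNB1, IFNE and IFNL1, with at most 3 counts in any library and too few to test. Of the other upstream genes 39 were tested. In SS against control 16 of the 39 were called by edgeR, 7 higher and 9 lower, and 4 with the length offset. Of all tested genes 40.0% were called, and 9.23% with the offset, so these counts are near the shares over all genes. The 16 became 8 without the first control library and 9 without the second, where 3118 of all 14334 and 3628 of all 14355 genes were called. They became 10 without either SS library, where 4559 of all 14295 (first left out) and 3164 of all 14316 genes (second left out) were called. In SS+NAC against control 0 of the 39 were called by edgeR and 0 by DESeq2, with 7 at an unadjusted p below 0.05 by edgeR, and 3 were called by edgeR without the first SS+NAC library, as were 1086 of all 14277 genes. With all libraries kept, 2.01% of all tested genes were called by edgeR in SS+NAC against control, and 315 of all 13197 by DESeq2. For 2256 of all 14005 the unadjusted p was below 0.05 by edgeR. In SS against SS+NAC 14 of the 39 were called, 2 higher and 12 lower, and 5 with the offset. The shares over all tested genes were 42.7% and 14.4%.

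All 6 receptor genes were tested. IFNAR1, the first chain of the type I receptor, fell in SS against both control (-0.36 ± 0.0917, SE, edgeR adjusted p = 0.0102) and SS+NAC (-0.43 ± 0.0909, edgeR adjusted p = 0.00388). It had 59.9 and 59.5 CPM in control, 48.3 and 44.5 in SS and 57.4 and 67.5 in SS+NAC, so both SS libraries were lowest. With the offset neither difference was called (-0.12 and -0.19, edgeR adjusted p = 0.397 and 0.143). Against control the call was also lost without the first control library (edgeR adjusted p = 0.0587), the second (edgeR adjusted p = 0.0664) or the second SS library (edgeR adjusted p = 0.0875). IFNAR2, the second chain, had -0.26 ± 0.0880 in SS against SS+NAC (edgeR adjusted p = 0.0346). That call was lost when either control library, either SS library or the second SS+NAC library was left out (edgeR adjusted p from 0.0679 to 0.15), and by DESeq2 (adjusted p = 0.197). With the offset IFNAR2 was called against both control (-0.38, edgeR adjusted p = 0.0264) and SS+NAC (-0.46, edgeR adjusted p = 0.00841), but it shares 2038 of its 4614 exonic bases with AP000295.1 on the same strand. The receptors with the highest levels, IFNGR2 (73.5 TPM) and IL10RB (33.1 TPM), were not called in any comparison; without either SS+NAC library IFNGR2 was called in SS against control (0.21, edgeR adjusted p = 0.0283 and 0.0285), and without the second in SS against SS+NAC (0.24, edgeR adjusted p = 0.0423).

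Among the kinases and transcription factors JAK2, the kinase of the interferon gamma receptor, fell most. It had 148 and 163 counts in control, 101 and 73 in SS and 193 and 173 in SS+NAC. JAK2 was 2.01-fold lower in SS than in control (-1.0 ± 0.169, SE, edgeR adjusted p = 0.00129) and 1.96-fold lower than in SS+NAC (-0.97 ± 0.166, edgeR adjusted p = 0.00131). It stayed called with the length offset in both (-0.70 and -0.68, edgeR adjusted p = 0.0266 and 0.0218) and without each library in turn. IRF1, a factor that binds elements like the ISRE, rose in SS against control (0.47 ± 0.0804, edgeR adjusted p = 0.00148; with the offset 0.37, edgeR adjusted p = 0.0192), and it shares exonic bases with C5orf56 and AC116366.3 on the other strand.

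STAT2, a partner of IRF9, had 30.4 and 26.9 CPM in control, 25.9 and 23.6 in SS and 33.7 and 34.2 in SS+NAC. The SS libraries were thus lowest, whereas IRF9 was higher in SS than in control. STAT2 was lower in SS than in SS+NAC by 0.45 ± 0.0899 on the log2 scale (SE, edgeR adjusted p = 0.00269), but not called with the offset (-0.25, edgeR adjusted p = 0.0766). Against control it had -0.21 ± 0.0921 (edgeR adjusted p = 0.0961). JAK1, the most abundant of the list (55.4 TPM), had -0.26 and -0.27 in SS against control and SS+NAC (edgeR adjusted p = 0.0234 and 0.0178). With the offset it had 0.03 and 0.01 (edgeR adjusted p = 0.797 and 0.909), and against control its call was lost when any control or SS library was left out (edgeR adjusted p from 0.0575 to 0.158). Against SS+NAC it was lost without the second control, SS or SS+NAC library (edgeR adjusted p = 0.0627, 0.114 and 0.0952).

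Of the 16 sensors, adaptors and inducers of interferon, 8 were called in SS against control, 4 higher and 4 lower, where 40.0% of all tested genes were called. With the length offset 0 were called by edgeR, where 9.23% of all tested genes were. Of the 16, 3 then had an unadjusted p below 0.05 by edgeR, as did 3555 of all 14005 tested genes. DESeq2, without the offset, called 5 of the 16 and 4611 of all 12171 genes for which it gave an adjusted p. The largest called changes were those of IRF7, an inducer of interferon genes (0.49 ± 0.132, SE, edgeR adjusted p = 0.0139), and DDX58, a sensor of viral RNA (-0.48 ± 0.137, edgeR adjusted p = 0.0182). IRF7 was not called when any control or SS library was left out (edgeR adjusted p from 0.0512 to 0.0787), by DESeq2 (adjusted p = 0.0644) or with the offset (0.26, edgeR adjusted p = 0.249). DDX58 was not called without the first control library (edgeR adjusted p = 0.0757), the second (edgeR adjusted p = 0.116) or the first SS library (edgeR adjusted p = 0.111). Nor was it called by DESeq2 (adjusted p = 0.0851) or with the offset (-0.21, edgeR adjusted p = 0.383). TRAF3, an adaptor of interferon induction, fell by 0.46 on the log2 scale (edgeR adjusted p = 0.00084), and IRF3, the most abundant of them (92.4 TPM) and a factor that switches on interferon genes, rose by 0.39 (edgeR adjusted p = 0.00174). Both were called without each library in turn, and with the offset they had -0.01 and 0.08 (edgeR adjusted p = 0.92 and 0.497). IRF3 shares 734 exonic bases with BCL2L12 on the other strand. IFI16, a DNA sensor with 69.4 TPM, had -0.02 (edgeR adjusted p = 0.872). In SS against SS+NAC 5 of the 16 were called, 1 higher and 4 lower, where 42.7% of all tested genes were called. Under the offset 2 of the 16 and 14.4% of all tested genes were called, TBK1 and CGAS, a DNA sensor chosen after its values were seen and called only with the offset (-0.38, edgeR adjusted p = 0.0347). TBK1, the kinase that activates IRF3, was the largest of these (-0.52 ± 0.124, SE, edgeR adjusted p = 0.00664). It stayed called with the offset (-0.47, edgeR adjusted p = 0.0298) but not without the second SS library (-0.42, edgeR adjusted p = 0.0732).

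Of the 9 negative regulators 4 were called in SS against control, 2 higher and 2 lower, and 3 in SS against SS+NAC, where 40.0% and 42.7% of all tested genes were called. SOCS3, an inhibitor of the kinases, had the larger of the 2 called rises against control (0.58 ± 0.195, SE, edgeR adjusted p = 0.0350). It was not called without the first control library (edgeR adjusted p = 0.0708), the second (edgeR adjusted p = 0.0977) or the first SS library (edgeR adjusted p = 0.208), nor with the offset (0.56, edgeR adjusted p = 0.110). USP18, the protease that removes ISG15 from proteins and also silences the receptor, had 1054 and 1282 counts in control, 1616 and 1720 in SS and 1273 and 1340 in SS+NAC. Both SS libraries were highest in CPM, and USP18 rose by 0.35 against control (edgeR adjusted p = 0.00561) and by 0.46 against SS+NAC (edgeR adjusted p = 0.00136). Against control the call was lost without the second SS library (0.27, edgeR adjusted p = 0.066) and with the offset (0.18, edgeR adjusted p = 0.149). PTPN11, a phosphatase with 73.9 TPM, fell by 0.63 against control (edgeR adjusted p = 0.000264) and by 0.52 against SS+NAC (edgeR adjusted p = 0.000603). With the offset these were -0.24 (edgeR adjusted p = 0.0393) and -0.15 (edgeR adjusted p = 0.136). PTPN1, the most abundant of the list (111 TPM), was not called in any comparison (edgeR adjusted p from 0.0923 to 0.536).

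Over the 6 libraries the mean of the 9 genes, as log2 CPM centred on each gene's own mean, was -0.11 and -0.21 in control, 0.08 and 0.09 in SS and 0.04 and 0.12 in SS+NAC. Both control libraries were thus lowest, and the treated groups overlapped. Among 10605 tested genes outside the lists that averaged 5 CPM or more, the 5 whose log2 CPM had the highest Pearson r with this mean were EIF2S3 (0.996), ASH2L (0.984), MGST1 (0.984), FTH1 (0.982) and FRS3 (0.982). With 6 libraries in 3 groups this is a description without a test. MGST1, a membrane-bound glutathione transferase, had 97.9 and 88.3 CPM in control, 128 and 122 in SS and 117 and 138 in SS+NAC. FTH1, the heavy chain of ferritin, which stores iron, had 2802 and 2686 CPM in control, 3699 and 3666 in SS and 3593 and 4030 in SS+NAC, and its many pseudogenes make its counts uncertain. Both were lowest in the control libraries, as the 9 genes were on average.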

How the data were processed

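RNA of KHM-5M cells in 3 groups of 2 libraries was captured by oligo(dT) and sequenced by the authors in single-end reads; 2 biological replicates are stated. The submitters' processing notes name HISAT2 2.0.4, Bowtie2 2.2.5 and RSEM 1.2.12. The deposited table holds expected counts, which the authors estimated per gene and library. The FPKM values deposited by the authors served here to derive effective lengths. The TPM values are those deposited by the authors. The authors' group means and comparison columns (fold changes, p-values) were not used, and 18 of 95 columns were.

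The 9 genes and all lists were chosen with earlier results of these data known. Expected counts were rounded, filtered with filterByExpr, scaled with TMM and fitted over all 6 libraries in edgeR 4.0.16 (limma 3.58.1, R 4.3.3), which left 14005 genes with a biological coefficient of variation of 6.74%. At 103 to 532 counts per member and library, counting error adds to this spread. The quasi-likelihood test was adjusted by Benjamini-Hochberg over all tested genes, and an adjusted p of at most 0.05 was called. CPM use TMM totals, and log2 CPM a prior count of 2. The length offset is a lowess curve (span 0.3) of each library's log2 CPM deviation on log effective length. The fit was tested on simulated data. Replicates differed by more than counting noise (chi-square per degree of freedom 3.05, 7.12 and 11.7 for control, SS and SS+NAC).

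Besides all 9 genes, the text names from each other list, per comparison, up to 4 called genes with the largest log2 fold change and the 2 with the highest mean TPM; for brevity not all were given, and 1 is not reported here. Alternatives were DESeq2 1.42.0 (size factors, Wald test), Bonferroni adjustment, the length offset, a block for replicate number, other filters, fits to the 2 compared groups alone and leaving out each library. Overlaps were taken from GENCODE release 29. A planned look at the proteins was not run. For tables, Python 3.11.15 was used with numpy 2.4.6, scipy 1.17.1 and pandas 2.3.3, and for plots matplotlib 3.10.9.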

Additional observations from a re-analysis of the deposited data

How the results depend on the processing

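Of 405 repeats of the log2 fold changes of the 9 genes under alternatives other than Bonferroni, 352 kept direction and side of the threshold and 27 changed sign, ISG15 losing its call with it under the offset in SS against SS+NAC. With the sign kept, 11 lost and 15 gained the call. The causes were not tested. Calls were also counted under the length offset, alone and with the replicate block. For the 9 genes they fell, either way, from 2 to 0 (SS against control) and from 2 to 1 (SS against SS+NAC). For the 50 other interferon-stimulated genes they fell from 27 to 4 and 2 and from 25 to 5 and 5. For all 14005 tested genes they fell from 5609 to 1292 and 851 and from 5985 to 2021 and 1355. The offset changed the sign, in SS against control, of IFIT1 (0.14, and 0.14 with the block), IFIT2 (0.10 and 0.10), IFI6 (-0.11 and -0.11) and IFI44 (-0.16 and -0.16), and in SS against SS+NAC of ISG15 (-0.01 and -0.01), OAS1 (-0.13 and -0.13) and IFI6 (-0.40 and -0.39). IFIT2 in SS against control also changed sign with DESeq2 size factors (0.00) and with a filter of 10 counts in every library (0.02). Bonferroni adjustment called 0 of the 9 genes in each comparison, and 1 and 0 other genes in SS against control and SS against SS+NAC. Of all 14005 genes it called 220 (SS against control), 40 (SS+NAC against control) and 191 (SS against SS+NAC). The DESeq2 Wald test called 1 of the 9 in SS against SS+NAC, and 4866 of all 12171 genes for which it gave an adjusted p.

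With 1 library left out, the lone library of a group is assumed to vary like the others. The genes called ranged from 1 to 4 (SS against control), 0 to 3 (SS+NAC against control) and 0 to 3 (SS against SS+NAC), and the other genes called from 19 to 28, 0 to 6 and 15 to 25, while the calls over all genes ranged from 3118 to 6579, 98 to 1086 and 3250 to 6339. Values that changed sign ranged, in SS against control, from -0.18 to 0.20 for IFIT2 and from -0.10 to 0.19 for IFI44, in SS+NAC against control from -0.28 to 0.03 for IFIT1, and in SS against SS+NAC from -0.12 to 0.18 for IFIT1, -0.01 to 0.14 for OAS1, -0.12 to 0.34 for IFI6 and -0.14 to 0.08 for IRF9.

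The differences between replicates 1 and 2 correlated at 0.113 (control and SS), -0.105 (control and SS+NAC) and -0.175 (SS and SS+NAC) over 14005 genes. Such weak correlations cannot tell whether the replicate numbers pair the samples. With the replicate block 2, 0 and 2 of the 9 genes and 24, 0 and 22 other genes were called, and 4857, 211 and 5136 of all 14005 genes. With the SS+NAC numbers crossed, an alternative chosen after seeing the data, the block called 4, 3 and 3 of the 9 genes and 29, 6 and 28 other genes, and 7151, 1475 and 7286 of all 14005 genes. The 9 genes had counts of 103 to 532 per library, and their SEs in SS against control were from 0.106 to 0.183. Whether the counts limited what was called was not tested.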
